A study of Oryza sativa with 6 samples.

Results

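MADS77 (LOC_Os09g02780), MADS78 (LOC_Os09g02830) and MADS87 (LOC_Os03g38610) are 3 type I MADS-box genes linked to the timing of endosperm cellularization in rice. They were chosen by name, from what is known of the early endosperm, but with earlier results of these data known. They make up 3 of the 39217 gene models counted. RNA was measured in whole grains 3 days after pollination, in 3 libraries of ZH11, the wild type, and 3 of the drw1 mutant. Both came from paddy-grown plants, and the labels give no allele of drw1 and no other treatment. A library is a mixture of endosperm, embryo and maternal grain tissue, and nothing in the labels says that replicates came from separate plants. The p-values therefore describe the spread among these libraries, which may be technical. The mutant columns carry another prefix than drw1 and were assigned to it because the series holds no other genotype.

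Type I MADS genes encode short transcription factors that bind DNA through the MADS domain. They lack the protein-protein interaction domains of the MADS factors that shape flowers. Many act in the female gametophyte and the young endosperm, which first grows as a syncytium of freely dividing nuclei and then forms walls around them, a step called cellularization. In rice, MADS78 is known as an early endosperm factor whose level normally declines as cellularization starts, and whose overexpression delays that step. MADS87 is known in rice as a heat-responsive gene of the same stage that affects seed size. MADS77 belongs to the same class, and its locus identifier lies close to that of MADS78 on chromosome 9, while the locus of MADS87 is on chromosome 3.

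The 3 genes did not move as a unit. MADS78 was read in every drw1 library and in no ZH11 library, MADS87 was about 1.94-fold higher in drw1, and MADS77, by far the most abundant, was lower in drw1, at 0.746 times the ZH11 level. In edgeR's quasi-likelihood test, 2 of the 3 were called higher and 1 lower at an adjusted p of 0.05. MADS78, one of the 2, was tested through its drw1 reads alone and could not have been called lower. Of all 23395 genes tested, 35.7% were called higher, 34.4% lower and 70.1% in either direction. A call by itself therefore sets none of the 3 apart from other genes, and the size of each difference says more than the call. For MADS77 and MADS87, no ZH11 library reached into the range of the drw1 libraries, which was also the case for 72.6% of tested genes. MADS78 was separate too, but its being tested through drw1 reads alone built that in. Library totals ran from 15582373 to 24147797 counts. Higher calls made up 51.0% of calls with TMM scaling, a scaling that centres most genes, and 61.3% with library totals alone.

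MADS78 was the gene with the plainest contrast. Its counts were 12, 15 and 11 in the drw1 libraries and 0, 0 and 0 in ZH11. All drw1 libraries were above all ZH11 libraries, although none held more than 15 reads. The drw1 level was 0.720 ± 0.131 CPM (CPM, reads relative to the TMM-scaled library total; SD, n = 3), which was low. At that level, the ZH11 libraries together would have held about 40.4 reads, and they held 0 of 59429790, which allows a level of up to 0.0534 CPM at a floor of 3 counts over the genotype. Against that floor MADS78 was at least 13.5-fold higher in drw1. The lower limit of the exact binomial 95% interval, which also takes in the counting error of the drw1 reads, was 10.4-fold. It passed the filter on low counts through the drw1 libraries alone, so a difference was built into its being tested, and its adjusted p (edgeR's quasi-likelihood test, adjusted p = 2.99e-05) adds no support. Floors and counting intervals cover counting error only.

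Absence from ZH11 was uncommon among tested genes. MADS78 was one of 44 tested genes with no read in any ZH11 library. Of these 44, 42, MADS78 included, had at least its number of reads in drw1, so it lay at the low end of that group. The filter on low counts admits such genes through their drw1 reads alone, so it sets the lower edge of the group and its size. Over all gene models, 1372 had no read in ZH11 and at least 1 in drw1, and 47 of them, MADS78 included, reached 38 reads.

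MADS87 was read in both genotypes, at low counts. The ZH11 libraries held 22, 30 and 12 reads and the drw1 libraries 42, 38 and 36. The highest ZH11 library stayed below the lowest drw1 library, also on the scaled level, where ZH11 ran from 0.805 to 1.31 CPM and drw1 from 1.99 to 2.41 CPM. The ZH11 mean was 1.10 ± 0.265 CPM, and the drw1 mean, 2.20 ± 0.208 CPM, was higher (SD, n = 3). On the log2 scale MADS87 was higher by 0.96 (SE 0.28; edgeR's quasi-likelihood test, adjusted p = 0.00557), at or above the fold change of 86.6% of tested genes. Summed over libraries, 64 reads in ZH11 and 116 in drw1 gave a ratio of 1.93 per scaled total, with an exact binomial 95% interval of 1.41 to 2.66. The ZH11 libraries differed among themselves more than the drw1 libraries did, with replicate 3 the lowest.

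MADS77 moved the other way. Its counts were 413, 547 and 278 in ZH11 and 253, 299 and 307 in drw1. Scaled for depth, ZH11 ran from 18.7 to 23.9 CPM and drw1 from 14.5 to 17.2 CPM, so the groups were separate by a narrow gap between ZH11 replicate 3 and drw1 replicate 2. The ZH11 mean was 21.7 ± 2.72 CPM and the drw1 mean 16.2 ± 1.51 CPM (SD, n = 3). The fitted log2 difference was -0.42 (SE 0.11; edgeR's quasi-likelihood test, adjusted p = 0.00262). The fall was modest, and 28.8% of tested genes had a fold change as low or lower. With library totals alone it shrank to -0.27 (adjusted p = 0.0364), while the median of all tested genes moved from 0.03 to 0.19. Relative to that median, MADS77 was at -0.46 and MADS87 at 0.92. A change of scaling shifts all genes alike, so these distances stay the same by construction.

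**Figure D1:**
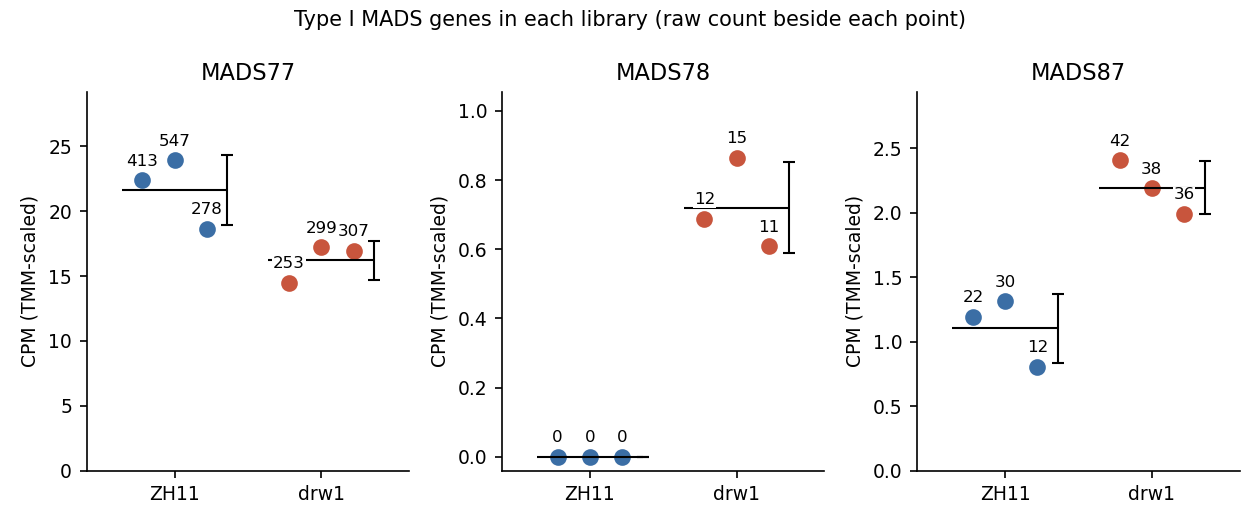
Level of MADS77, MADS78 and MADS87 in each library, in CPM on TMM-scaled totals; each point is 1 library with its raw count beside it, the line is the mean and the bar the SD of 3 libraries. MADS78 is at 0 in all ZH11 libraries, MADS87 is higher and MADS77 lower in all drw1 libraries, and the vertical scales differ between panels.

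Levels of different genes were compared per kilobase of gene model (537 bases for MADS77, 649 for MADS78 and 750 for MADS87). In ZH11 the level of MADS77 was 40.3 ± 5.06 CPM per kilobase, that of MADS87 1.47 ± 0.354 and that of MADS78 0 (SD, n = 3). In drw1 the order was the same, with 30.2 ± 2.81, 2.93 ± 0.278 and 1.11 ± 0.202 CPM per kilobase. No 2 neighbours in either order overlapped between libraries. Against all tested genes, MADS77 had a level per kilobase at or above that of 84.0% of genes in ZH11 and 80.2% in drw1. The level of MADS87 was at or above that of 14.3% of genes in ZH11 and 23.7% in drw1, and MADS78 reached 10.2% in drw1. The pair that was higher in the mutant was thus weakly expressed there too.

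The summed level of the 3 genes was 41.8 ± 5.41 CPM per kilobase in ZH11 and 34.3 ± 2.66 in drw1 (SD, n = 3), with libraries that overlapped. Its make-up differed. MADS77 held 96.2% to 97.0% of the sum in ZH11 libraries and 86.3% to 89.8% in drw1. The share of MADS87 was 3.00% to 3.78% in ZH11 and 7.54% to 10.3% in drw1. MADS78 contributed 2.66% to 3.67% in drw1.

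**Figure D2:**
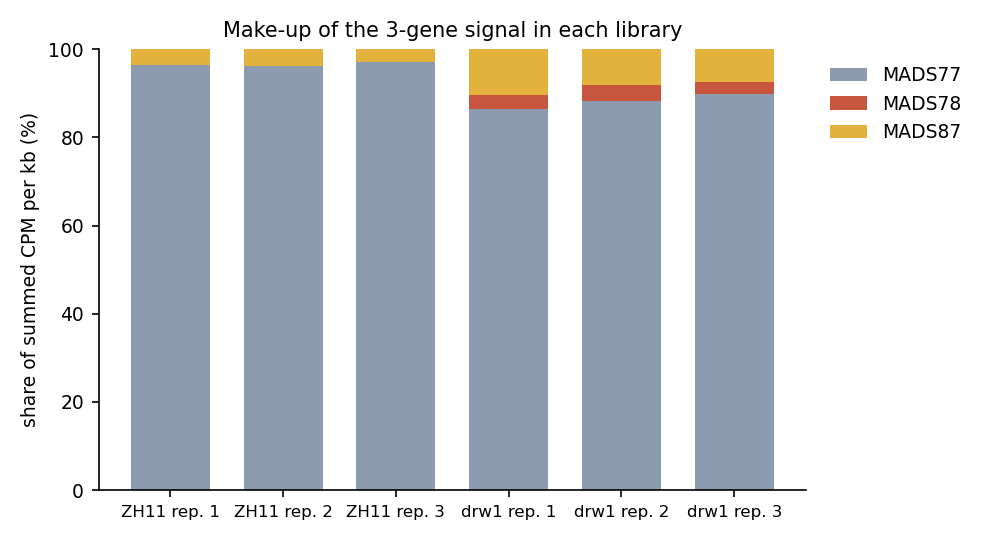
Share of MADS77, MADS78 and MADS87 in their summed level per kilobase (percent, vertical axis) in each of the 6 libraries. MADS77 makes up most of every bar, with a smaller share in all drw1 libraries, where MADS78 appears and the share of MADS87 is larger.

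A ratio of counts within a library does not depend on scaling. The log2 ratio of MADS87 to MADS77, with 0.5 added to each count, was -4.20, -4.17 and -4.48 in ZH11 and -2.58, -2.96 and -3.07 in drw1. Every drw1 library was above every ZH11 library. The means differed by 1.41, a 2.66-fold shift from MADS77 toward MADS87 (exact permutation test over libraries, two-sided, p = 0.1, also 0.1 after adjustment over 3 pairs). With 3 libraries against 3, 0.1 is the smallest p this test can give. The log2 ratio of MADS78 to MADS77 ran from -4.74 to -4.27 in drw1. In ZH11 MADS78 had no reads, so both ratios that involve it depend on the added count there. With 0.5 added, the difference between genotypes was 5.18 for MADS78 over MADS77 and -3.77 for MADS87 over MADS78, and with 1 added it was 4.24 and -2.85. These are descriptions, since the 0 counts alone separate the genotypes and a test would add nothing.

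Further type I MADS genes were looked at through 2 loci assigned to this class from memory, LOC_Os01g74440 and LOC_Os01g18440, which no annotation used here names. Both were higher in drw1, beside 35.7% of all tested genes. LOC_Os01g74440 had 9, 8 and 14 reads in ZH11 and 54, 56 and 45 in drw1, higher by 2.38 on the log2 scale (SE 0.33; edgeR's quasi-likelihood test, adjusted p = 6.47e-06). LOC_Os01g18440 had 105, 143 and 105 reads in ZH11 and 252, 275 and 296 in drw1, higher by 1.30 (SE 0.12; edgeR's quasi-likelihood test, adjusted p = 5.11e-08). The groups were separate for both. In all, 4 of these 5 type I loci were higher in drw1, and MADS77 was the one that was lower. The 4 include MADS78, which was tested through its drw1 reads alone and could not have come out lower. All 5 were chosen with earlier results of these data known, and other type I loci were not looked at. The count therefore does not describe the class. Per kilobase, LOC_Os01g18440 stood between MADS77 and MADS87 in both genotypes, at 6.87 ± 0.736 CPM per kilobase in ZH11 and 16.9 ± 1.08 in drw1. LOC_Os01g74440 overlapped MADS87 in ZH11, at 0.945 ± 0.492, and stood above it in drw1, at 4.68 ± 0.629 CPM per kilobase.

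Polycomb repressive complex 2 silences genes by methylating histone H3 and is known in rice and Arabidopsis to hold type I MADS genes down in the endosperm. Of 6 loci assigned to it, 3 fell, 1 rose and 2 did not pass the test, beside 34.4% of all tested genes lower and 35.7% higher, with a median log2 fold change of -0.36 against 0.03 over all tested genes. The rise, that of LOC_Os08g04270, was small (0.17, SE 0.07; edgeR's quasi-likelihood test, adjusted p = 0.0329). No locus of this list was called higher with DESeq2 size factors, with DESeq2, with the replicate number as a block, or when any 1 library other than drw1 replicate 3 was left out, while 2 were with library totals alone or upper-quartile factors. Loci called lower numbered 3 or 4 in every alternative. The largest fall was that of LOC_Os08g04290, from 28.0 ± 2.24 to 3.92 ± 0.302 CPM (SD, n = 3; log2 fold change -2.83). The 10 tested loci assigned to endosperm filling, given below, had log2 fold changes of -6.66 to -1.53, a range that holds this value. The part of tissue make-up in it, and any link of the Polycomb loci to the MADS genes, were not tested. Auxin made after fertilization is known to delay cellularization in Arabidopsis. Of 3 loci assigned to auxin synthesis, 2 were tested and both were called lower, beside 34.4% of all tested genes. Their log2 values were -2.02 (SE 0.20; edgeR's quasi-likelihood test, adjusted p = 1.02e-07) and -0.51 (SE 0.17; adjusted p = 0.0133). A link of these loci to the MADS genes was not tested. The smaller fall lost its call with library totals alone, without ZH11 replicate 2 and without drw1 replicate 3, which leaves 1 locus lower. The third locus had 18 reads over ZH11 and 0 over drw1, and was called lower when no filter on low counts was used, which gives 3 lower.

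**Figure D3:**
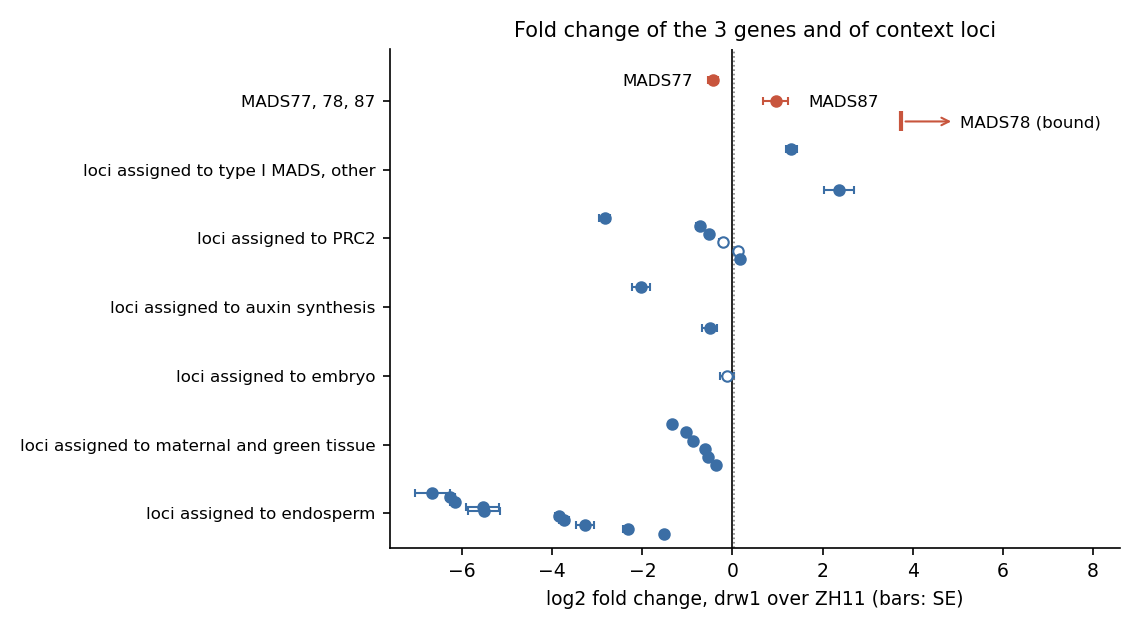
Log2 fold change, drw1 over ZH11, of MADS77, MADS78 and MADS87 (red) and of tested loci assigned to 6 context lists (blue); bars are SE, open circles did not pass an adjusted p of 0.05, and the dotted line is the median of all tested genes. MADS78 is drawn as an arrow from its lower bound of 13.5-fold, MADS87 lies to the right of 0 and MADS77 to the left, far from the endosperm loci at the lower left.

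Markers of the tissues in a grain were read beside these results. All 10 tested loci assigned to endosperm filling, of 11 written down, were called lower in drw1, beside 34.4% of all tested genes. Their summed level was 1131 to 1144 CPM in ZH11 and 105 to 108 CPM in drw1. The locus of this set that fell least (log2 fold change -1.53) averaged 194 CPM in ZH11 and 67.3 CPM in drw1, so it held most of the drw1 sum. None of the 10 was at 0 in either genotype. All 6 loci assigned to maternal and green grain tissue were also called lower, beside the same 34.4%. Their summed levels were 1101 to 1256 CPM in ZH11 and 662 to 707 CPM in drw1. The single embryo locus had 7.98 to 8.62 CPM in ZH11 and 5.80 to 8.94 CPM in drw1 and did not pass the test. In whole grains, fewer cells of a type and less RNA per cell cannot be told apart, and the part of tissue make-up in the results for the MADS genes was not tested.

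The log2 value of MADS77, -0.42, stood beside a median of -4.69 over the 10 endosperm loci. Per 1000 reads on those loci there were 16.5 to 21.2 reads of MADS77 in ZH11 and 134 to 164 in drw1. MADS87 gave 0.711 to 1.16 in ZH11 and 18.9 to 22.3 in drw1, and MADS78 gave 5.77 to 8.23 in drw1. Most endosperm-locus reads in drw1 lay on the locus that fell least, which held a small part of them in ZH11. These ratios therefore rest on a different mix of loci in each genotype. Per 1000 reads on the maternal and green tissue loci, MADS77 gave 16.9 to 21.0 in ZH11 and 21.9 to 25.3 in drw1. Its direction turned on this yardstick because the summed level of those loci fell by more than MADS77 did. On that yardstick MADS87 gave 0.731 to 1.15 in ZH11 and 2.82 to 3.63 in drw1. The summed levels of both sets of loci were lower in drw1, which raises ratios to them there. MADS87, already higher per library total, therefore had to be higher on both yardsticks.

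MADS77 and MADS78 are separated by 5 gene models in the order of locus identifiers. Among these, LOC_Os09g02790 was lower, at -1.94 (log2, SE 0.26; edgeR's quasi-likelihood test, adjusted p = 4.51e-06), and LOC_Os09g02814 rose by 0.55 (SE 0.14; adjusted p = 0.00199). LOC_Os09g02810 stood at 0.03 (SE 0.09), and the remaining pair had no reads. Of the 10 models nearest to MADS78, 6 had no read in any library, and MADS78 was the sole model of the stretch with reads in drw1 and none in ZH11. Of the 10 nearest to MADS77, 7 were tested, of which 2 rose, 3 fell and 2 did not pass. Around MADS87, 6 of 10 were tested, of which 4 rose and 1 fell, with log2 fold changes from -0.42 to 1.37. Neighbours of each gene thus included loci with its direction and loci with the opposite one, though MADS78 itself had 3 tested neighbours, all on the side of MADS77. Of all tested genes, 35.7% were called higher and 34.4% lower, so calls in both directions do not set these stretches apart. How reads shared by similar copies were counted is not given in the sources used here, so the values of MADS77 and MADS78, which belong to one class, are uncertain to that extent.

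**Figure D4:**
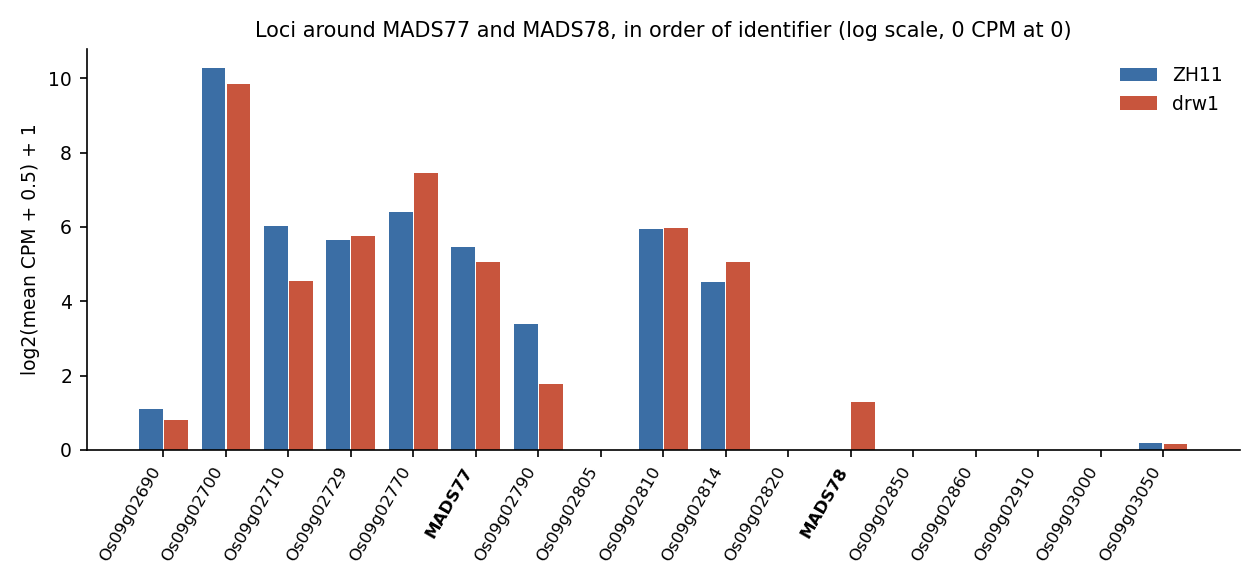
Mean level of the gene models around MADS77 and MADS78, in order of locus identifier, as log2(mean CPM + 0.5) + 1, so that 0 CPM lies at 0; blue bars are ZH11 and red bars drw1 (n = 3 each). MADS78 has a red bar and no blue one. The models after it have no or almost no reads, while those between it and MADS77 include expressed ones. MADS77 stands among mostly expressed models that move in both directions.

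The genes whose log2 CPM followed each of the 3 most closely over the 6 libraries were picked among 22050 tested genes with a mean of at least 1 CPM, as a description. For MADS77 these were LOC_Os01g44120, LOC_Os05g33850 and LOC_Os04g58900 (Pearson's r 0.9927, 0.9914 and 0.9904), and 138 genes reached 0.95. For MADS87 they were LOC_Os02g29210, LOC_Os05g34550 and LOC_Os07g09720 (0.9978, 0.9973 and 0.9972), and 1016 genes reached 0.95. For MADS78 they were LOC_Os04g51710, LOC_Os02g07780 and LOC_Os09g01600 (0.9999, 0.9997 and 0.9993), and 3713 genes reached 0.95. MADS78 is flat at 0 reads in ZH11, and a high r does not mean a like level or fold change. LOC_Os04g51710 stood at 77.6 CPM in ZH11 and was higher in drw1 by 0.42 on the log2 scale. The 6 libraries hold 2 genotypes, so these values mostly reflect a difference between genotypes that the genes have in common.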

How the data were processed

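The deposited values are raw read counts per gene model, as the whole numbers and differing column totals show. The submitters' processing notes name fastp, HISAT2, featureCounts and DESeq. Versions, genome build, annotation, strand setting and the handling of multiply matched reads were not given in the sources used here. No column was left out. Of 39217 identifiers, 0 are in the reference gene table (ASM3414082v1), and neither are the names of the 3 genes. The deposited gene length was used for levels per kilobase.

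Genotypes were compared with edgeR 4.0.16 (quasi-likelihood test, two-sided, R 4.3.3) with TMM scaling, edgeR's default filter on low counts and Benjamini-Hochberg adjustment over 23395 tested genes (threshold 0.05). Standard errors are approximations from the fold change and the F statistic. Alternatives were DESeq2 1.42.0, limma-voom (limma 3.58.1), other scalings and filters, the replicate number as a block, and leaving out each library.

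The 3 genes and the lists were chosen with earlier results of these data known. The 29 list loci were written from memory. For 11 of their symbols the reference has an entry, in 11 cases on the chromosome of the locus. The 3 genes were named whatever their values. By rule, the 5 neighbours on each side in identifier order, the 3 genes with the highest correlation to each, and the largest rise and fall of a list could be named.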

Additional observations from a re-analysis of the deposited data

How the results depend on the processing

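MADS77 was lower and MADS87 higher past the threshold in all 14 alternatives for each, with log2 fold changes of -0.52 to -0.27 (adjusted p from 0.000222 to 0.0364) and 0.80 to 1.11 (adjusted p from 0.00165 to 0.0255). For MADS78, fitted values in 13 alternatives ran from 4.77 to 6.83. They depend on the prior count, and as it was tested through its drw1 reads alone, they say nothing about stability. With at least 1 CPM in 3 libraries it was filtered out and has no value. Without 1 library, MADS77 ran from -0.52 to -0.34, MADS87 from 0.80 to 1.11 and MADS78 from 6.59 to 6.83. The replicate number as a block gave -0.42 for MADS77 (adjusted p = 0.00835), 0.98 for MADS87 (adjusted p = 0.0113) and 6.76 for MADS78 (edgeR's quasi-likelihood test). It called 15505 genes. The labels tie no number to a plant or day. Deviations of libraries that share a number correlated at -0.169, 0.0339 and -0.137, and the best match was the library of the same number for 1 of the 6. LOC_Os01g74440 and LOC_Os01g18440 stayed higher past the threshold in all 14 alternatives. Auxin synthesis loci called numbered 1 in place of 2 with library totals alone, 3 with no filter, and 1 to 2 without 1 library. Polycomb loci called higher numbered 0 to 2 and lower 3 to 4 over the alternatives. With 1 count added in place of 0.5, the difference in log2 ratio was 4.24 for MADS78 over MADS77 and -2.85 for MADS87 over MADS78, which follows from the 0 counts of MADS78 in ZH11. Depth limits MADS78 and MADS87 most, at 38 and 180 reads over all 6 libraries.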
